A study of Mus musculus with 23 samples.

Results

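The 37 genes described here encode the machinery of autophagy and mitophagy, and were chosen by gene symbol from a list of 37. All 37 were present among the 14500 genes of the deposited table, and all 37 were among the 12820 genes tested. Tibialis anterior muscle, a fast limb muscle of the lower leg, was taken from female C57BL/6 mice fed ad libitum at ZT12 or ZT0 (12 or 0 h after lights on), and total RNA of whole muscle was sequenced in 23 libraries. The treated muscles had been injected with 6-hydroxydopamine (6-OHDA), a toxin taken up by catecholamine nerve endings and used for chemical sympathectomy. The dose was 50 mg/kg into the muscle on alternate days for 2 weeks, with a recovery of another 2 weeks before collection. The sham muscles received no injection, so effects of the injections themselves and of 6-OHDA cannot be told apart, and loss of nerve endings is not part of these data.

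RE-RE mice were Bmal1(stopFL/stopFL) and carried both the Syt10-Cre(-/tg) and the Hsa-Cre(-/tg) transgene. In this design a floxed stop cassette silences the clock gene Bmal1 (Arntl in the table) except where Cre removes it, under a neuronal promoter in Syt10-Cre and a skeletal muscle actin promoter in Hsa-Cre. Other tissues and cell types keep the cassette. There were 4 RE-RE 6-OHDA libraries (12 to 18 weeks old, 2 at each time), 4 RE-RE sham libraries (10 to 11 weeks, 2 at each time), 8 wild-type 6-OHDA libraries (12 to 16 weeks, 4 at each time) and 7 wild-type sham libraries (12 to 18 weeks, 3 at ZT12 and 4 at ZT0). The RE-RE sham mice were younger than every wild-type sham mouse, so age and genotype cannot be told apart in sham muscle. They were also younger than every RE-RE 6-OHDA mouse, so within RE-RE muscle age and 6-OHDA cannot be told apart. The labels do not say which muscles came from the same animal, and p-values measure the spread between these libraries.

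Macroautophagy encloses cytoplasm in a double membrane and delivers it to lysosomes. The ULK kinase complex starts the process, the PI3-kinase complex around beclin 1 makes the lipid signal, ATG9 and ATG2 supply membrane, and a pair of ubiquitin-like conjugation systems attaches LC3 and GABARAP proteins to the growing membrane. Receptors such as p62 tie ubiquitinated cargo to LC3, while BNIP3, NIX and FUNDC1 sit on mitochondria and mark them for removal (mitophagy). In skeletal muscle autophagy is known for its role in fasting, denervation, exercise and the upkeep of mitochondria. These data are transcript levels: they do not measure LC3 lipidation or autophagic flux.

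Before the results, the libraries that stood apart need naming. RE-RE sham libraries 1 and 3 listed 520 and 463 genes at an FPKM of 0 (fragments per kilobase of exon, scaled to a library size), against 375 and 350 in RE-RE sham libraries 2 and 4. The next highest were 428 in wild-type sham library 3 and 422 in RE-RE 6-OHDA library 2, so by this count RE-RE sham library 3 stood apart less clearly. RE-RE sham libraries 1 and 3 also had the highest mitochondrial shares of reads, at 27.6% and 23.1%. RE-RE sham library 1 also had the lowest read total (21.1M). RE-RE 6-OHDA library 2 had a summed level of 12 macrophage markers of 20.03 FPKM, whereas RE-RE 6-OHDA libraries 1, 3 and 4 had 300.4, 89.2 and 331 FPKM. Its 10 regenerating fibre markers summed to 264 FPKM, against 690.2 to 1027 FPKM in the other RE-RE 6-OHDA libraries. The median residual SD of the 37 genes on the log2 scale was 0.365 among RE-RE libraries and 0.169 among wild-type ones, and it was larger in RE-RE for 33 of 37. The fit uses 1 spread for both genotypes. For those 33 genes this makes its p-values too small within RE-RE and too large within wild-type muscle. The spread was slightly smaller in RE-RE for Atg4b, Atg14 and Map1lc3a, and clearly smaller for Uvrag. For Uvrag the shared spread thus works the other way. RE-RE results are given with and without these 3 libraries. Leaving them out keeps 1 library in RE-RE sham muscle at each time and in RE-RE 6-OHDA muscle at ZT0. The spread of that fit comes mostly from wild-type libraries, so its differences are given but whether a gene passed there carries little weight.

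The targeted gene Arntl was transcribed in both genotypes and higher at ZT0. In RE-RE muscle it had 2.37 and 3.97 FPKM at ZT12 against 9.61 and 8.87 FPKM at ZT0 after 6-OHDA, and 2.83 and 4.07 FPKM at ZT12 against 11.0 and 14.3 FPKM at ZT0 in sham. In wild-type muscle it averaged 1.48 ± 0.263 FPKM at ZT12 and 9.84 ± 0.734 FPKM at ZT0 after 6-OHDA (SD, n = 4 each), and 2.03 ± 0.160 (SD, n = 3) at ZT12 and 14.2 ± 1.74 FPKM (SD, n = 4) at ZT0 in sham.

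Per unit of exon length, Map1lc3a, an LC3 isoform, was the highest with a median of 169 FPKM over the 23 libraries (97.0 to 223 FPKM). Sqstm1, which encodes the receptor p62, followed with a median of 132 FPKM, then the mitophagy receptor Bnip3 with 72.2 FPKM and Gabarap with 61.6 FPKM. The other LC3 and GABARAP genes lay near one another, with medians of 24.0 FPKM for Gabarapl2, 21.3 FPKM for Gabarapl1 and 20.4 FPKM for Map1lc3b, and their ranges over libraries overlapped. At the low end were Pik3r4 (median 1.89 FPKM), a regulatory subunit of the PI3-kinase complex, and Atg7 (2.11 FPKM), the E1-like enzyme that activates ATG12 and LC3. All 5 genes grouped under PI3-kinase and nucleation had medians between 1.89 and 6.73 FPKM, whereas the 3 mitophagy receptors lay between 13.1 and 72.2 FPKM. The lowest count was 107 reads, for the protease gene Atg4c in 1 library.

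The promoter windows of these genes, 250 bases before to 50 after the transcription start, were searched for the E-box CACGTG, a palindrome bound by BMAL1 with CLOCK and by TFEB, a lysosomal and autophagy gene activator. Windows from RefSeq (GRCm38.p6) were given for 30 of the 37 genes. The E-box was in the windows of 5 of these 30 (16.7%): Atg3, Atg5, Atg7, Atg14 and Bnip3. Of all 27025 genes with a window, 8.09% held it. The longer form TCACGTGA, which contains it, was in Atg3 alone among the 30 and in 1.12% of all genes. The windows below are those of the gene that rose after 6-OHDA in both genotypes (Uvrag, chr7:99141095-99141394, minus strand), of a pair of LC3-family genes that fell in wild-type muscle (Gabarapl2, chr8:111940453-111940752, plus strand, and Map1lc3b, chr8:121590188-121590487, plus strand), and of the conjugation enzyme with 2 E-boxes (Atg3, chr16:45158579-45158878, plus strand). They are written 5′ to 3′ in the direction of transcription, with CACGTG in capitals.
Uvrag: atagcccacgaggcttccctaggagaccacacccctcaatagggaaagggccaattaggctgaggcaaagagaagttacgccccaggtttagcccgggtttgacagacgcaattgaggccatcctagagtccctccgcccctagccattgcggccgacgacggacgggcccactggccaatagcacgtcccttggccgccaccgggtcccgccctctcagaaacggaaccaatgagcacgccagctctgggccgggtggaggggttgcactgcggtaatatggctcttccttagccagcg
Gabarapl2: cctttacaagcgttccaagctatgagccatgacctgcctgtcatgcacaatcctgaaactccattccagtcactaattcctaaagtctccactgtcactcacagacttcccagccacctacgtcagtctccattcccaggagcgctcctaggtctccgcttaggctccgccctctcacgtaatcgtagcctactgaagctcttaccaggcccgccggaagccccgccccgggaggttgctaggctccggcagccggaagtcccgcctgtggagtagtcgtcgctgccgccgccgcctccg
Map1lc3b: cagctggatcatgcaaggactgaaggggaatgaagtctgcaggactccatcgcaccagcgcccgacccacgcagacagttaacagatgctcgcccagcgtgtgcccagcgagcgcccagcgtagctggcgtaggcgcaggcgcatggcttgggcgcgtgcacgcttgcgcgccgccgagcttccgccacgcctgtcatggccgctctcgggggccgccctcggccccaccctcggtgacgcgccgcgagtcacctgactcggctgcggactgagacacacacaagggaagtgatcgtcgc
Atg3: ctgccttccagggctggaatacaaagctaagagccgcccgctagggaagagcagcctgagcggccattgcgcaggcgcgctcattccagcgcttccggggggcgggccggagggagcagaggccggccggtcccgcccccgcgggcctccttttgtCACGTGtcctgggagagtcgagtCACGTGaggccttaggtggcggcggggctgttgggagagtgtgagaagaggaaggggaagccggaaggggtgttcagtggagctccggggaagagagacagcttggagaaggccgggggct
The E-boxes of Atg3 begin 94 and 71 bases before the start. The other 3 windows hold no CACGTG.

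At the deposited scale, the 7 genes that were lower after 6-OHDA in wild-type muscle were near the share of all genes. The 1 higher gene was below that share. By limma on log2 FPKM with Benjamini-Hochberg adjustment over all 12820 genes, at an adjusted p under 0.05, 8 of 37 genes passed, 1 higher and 7 lower, averaged over both times. Of all genes 34.8% passed, 18.8% higher and 15.9% lower, so the share of the autophagy genes that passed was below the background and their share that fell was near it. The median of the 37 was -0.14 on the log2 scale, against -0.04 for all genes. The fallen genes were Ulk1 and Atg101 of the initiation complex, Map1lc3b and Gabarapl2 of the LC3 family, the receptors Optn and Bnip3l, and the transcription factor Tfeb.

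The scale of the table matters for these calls. The steps between the lowest FPKM of a library give the size it was scaled to, which differed from its total of recovered reads. The total over this size was 0.839 to 1.08 in wild-type 6-OHDA libraries and 1.15 to 1.32 in wild-type sham libraries. When each library was rescaled to its own total of reads recovered from the FPKM steps, the median of all genes was 0.29 in this comparison, and 10 of the 37 genes passed as higher and none as lower. The share of all genes that passed after rescaling is not given here, nor are such shares for the other settings below. Those counts are therefore not read against a background. Uvrag passed as higher under both scalings (log2 0.51 as deposited and 0.84 rescaled). The 7 falls kept a negative sign but did not pass after rescaling, with log2 differences from -0.22 for Ulk1 to -0.02 for Bnip3l. Falls are therefore reported as relative to other transcripts of the same libraries.

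In the initiation complex, Ulk1, the kinase that starts autophagy, had a lowest, median and highest level of 6.88, 7.79 and 9.11 FPKM in the 8 wild-type 6-OHDA libraries. The 7 wild-type sham libraries had 10.7, 11.4 and 14.9 FPKM. Every 6-OHDA library lay below every sham library, and the fall was -0.55 ± 0.17 on the log2 scale (SE, limma adjusted p = 0.0182). Atg101, a scaffold subunit of the same complex, averaged 22.2 ± 4.71 FPKM after 6-OHDA (SD, n = 8) and 27.9 ± 5.05 FPKM in sham (SD, n = 7), with overlapping ranges (log2 -0.37 ± 0.14, limma adjusted p = 0.0436). Its call was lost without any 1 of 13 of the 15 libraries. Ulk2, the paralogue of Ulk1, had 14.9, 17.8 and 22.3 FPKM after 6-OHDA, against 18.2, 23.2 and 27.0 FPKM in sham (log2 -0.34, limma adjusted p = 0.0561, not passed). Rb1cc1 (FIP200) and Atg13, the other subunits, had log2 differences of -0.27 and 0.02 and did not pass.

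Of the 5 genes grouped under nucleation, Uvrag alone passed in wild-type muscle. Uvrag binds beclin 1 and is known for roles in autophagosome maturation and endosome traffic. It had 4.45, 4.71 and 5.44 FPKM (lowest, median and highest) in wild-type 6-OHDA libraries, and 2.99, 3.39 and 3.91 FPKM in wild-type sham libraries. The groups did not overlap, and Uvrag was 0.51 ± 0.07 higher on the log2 scale (SE, limma adjusted p = 0.001). It passed under every alternative run on this comparison. A transcript on the opposite strand, Gm45187, overlaps 17.6% of its exon length, and the strand setting of the read counting is not given in the sources used here. Becn1, Pik3c3, Pik3r4 and Atg14, the other genes grouped here under nucleation, had log2 differences between -0.23 and 0.03 and did not pass.

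None of the 5 membrane supply genes, the 6 conjugation enzymes or the 4 LC3 proteases passed in wild-type muscle by limma, with 0, 0 and 1 of them at an unadjusted p under 0.05. Limma-voom on the recovered reads called the same total of 8 genes. It used the library sizes implied by the deposited FPKM. Here and below it thus repeats the values and scale of the main fit and is no independent check. The differences of the membrane supply, conjugation and protease genes were small. The membrane supply genes ranged from -0.15 (Atg2a) to 0.08 (Wipi1), and the conjugation enzymes from -0.29 (Atg10) to 0.04 (Atg7) on the log2 scale. Among the proteases, Atg4d, which trims and delipidates LC3-family proteins, had the lowest p. It had 11.5, 12.9 and 16.0 FPKM after 6-OHDA and 14.4, 15.6 and 20.1 FPKM in sham, with overlapping groups (log2 -0.29, limma adjusted p = 0.054). Kri1, on the other strand, overlaps 19.3% of the Atg4d exons.

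Of the 5 LC3 family genes 2 fell in wild-type muscle. Gabarapl2 (GATE-16) had 15.8, 21.6 and 23.1 FPKM in wild-type 6-OHDA libraries and 24.8, 27.7 and 31.1 FPKM in wild-type sham libraries. These groups did not overlap (log2 -0.45 ± 0.13, SE, limma adjusted p = 0.0159). Map1lc3b, the LC3 isoform most used as an autophagosome marker, had 13.6, 17.1 and 20.4 FPKM after 6-OHDA and 19.5, 22.7 and 24.0 FPKM in sham. It fell by 0.37 on the log2 scale (SE 0.11, limma adjusted p = 0.0172), and the ranges met at their edges. Gabarap and Gabarapl1 differed by -0.07 and 0.08 and did not pass. Map1lc3a, the more abundant isoform, averaged 183 ± 17.7 FPKM after 6-OHDA (SD, n = 8) and 152 ± 31.6 FPKM in sham (SD, n = 7), a difference of 0.29 that did not pass (limma adjusted p = 0.0971).

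A ratio of genes within a library does not depend on how libraries are scaled. The ratio of Map1lc3a to Map1lc3b FPKM had a lowest, median and highest value of 8.47, 10.3 and 13.6 in wild-type 6-OHDA libraries and of 4.17, 7.17 and 9.43 in wild-type sham libraries. In RE-RE 6-OHDA libraries 1 to 4 it was 11.4, 3.91, 11.2 and 12.8, and in RE-RE sham libraries 1 to 4 it was 3.98, 4.43, 4.52 and 5.001. RE-RE 6-OHDA library 2 lay below all RE-RE sham libraries, and the other 3 lay above them. Map1lc3a made up 57.3% ± 9.74 of the summed LC3 and GABARAP FPKM in RE-RE 6-OHDA muscle and 44.9% ± 4.49 in RE-RE sham muscle (SD, n = 4 each). Its share was 60.4% ± 1.71 in wild-type 6-OHDA muscle (SD, n = 8) and 52.6% ± 6.05 in wild-type sham muscle (SD, n = 7). The summed level of the 5 genes overlapped between groups, at 303 ± 22.6 FPKM after 6-OHDA (SD, n = 8) and 285 ± 29.6 FPKM in sham (SD, n = 7) in wild-type mice. These ratios were chosen after their values were seen and carry no test.

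**Figure D1:**
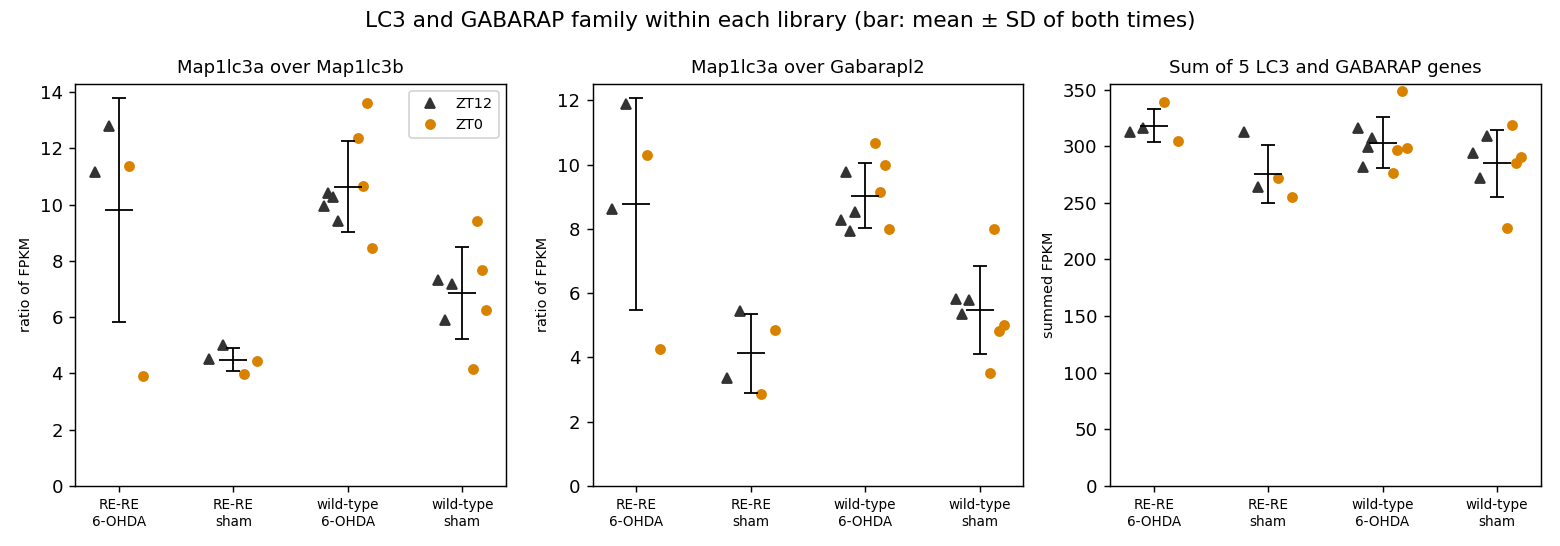
Ratio of Map1lc3a to Map1lc3b FPKM, ratio of Map1lc3a to Gabarapl2 FPKM, and summed FPKM of Map1lc3a, Map1lc3b, Gabarap, Gabarapl1 and Gabarapl2 in every library, by genotype and treatment (triangles ZT12, circles ZT0, bars mean ± SD). Both ratios are higher in most 6-OHDA libraries than in sham, except RE-RE 6-OHDA library 2, while the sums overlap.

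Among the receptors, Optn (optineurin), which links ubiquitinated mitochondria to LC3, had 10.3, 15.8 and 17.7 FPKM in wild-type 6-OHDA libraries and 16.6, 19.9 and 26.7 FPKM in wild-type sham libraries. It fell by 0.51 on the log2 scale (SE 0.15, limma adjusted p = 0.017), with a slight overlap. Bnip3l (NIX), a mitophagy receptor of the outer mitochondrial membrane, averaged 15.9 ± 2.11 FPKM after 6-OHDA (SD, n = 8) and 20.3 ± 1.73 FPKM in sham (SD, n = 7), a log2 difference of -0.35 ± 0.13 (SE, limma adjusted p = 0.0413). That call also depended on 13 of the 15 libraries singly. Sqstm1, Bnip3 and Fundc1 had differences of -0.29, -0.42 and -0.34 that did not pass (limma adjusted p = 0.0776, 0.0537 and 0.12). Nbr1, a receptor related to p62, differed by -0.03.

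Tfeb, the activator of lysosome and autophagy genes, had 7.69, 9.24 and 12.0 FPKM in wild-type 6-OHDA libraries, and 12.3, 13.3 and 17.0 FPKM in wild-type sham libraries. The groups did not overlap (log2 -0.52 ± 0.12, SE, limma adjusted p = 0.00427). In all, 1 of 37 genes was higher and 3 of 37 were lower with no overlap between wild-type 6-OHDA and sham libraries, against 8.03% and 5.87% of all genes.

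**Figure D2:**
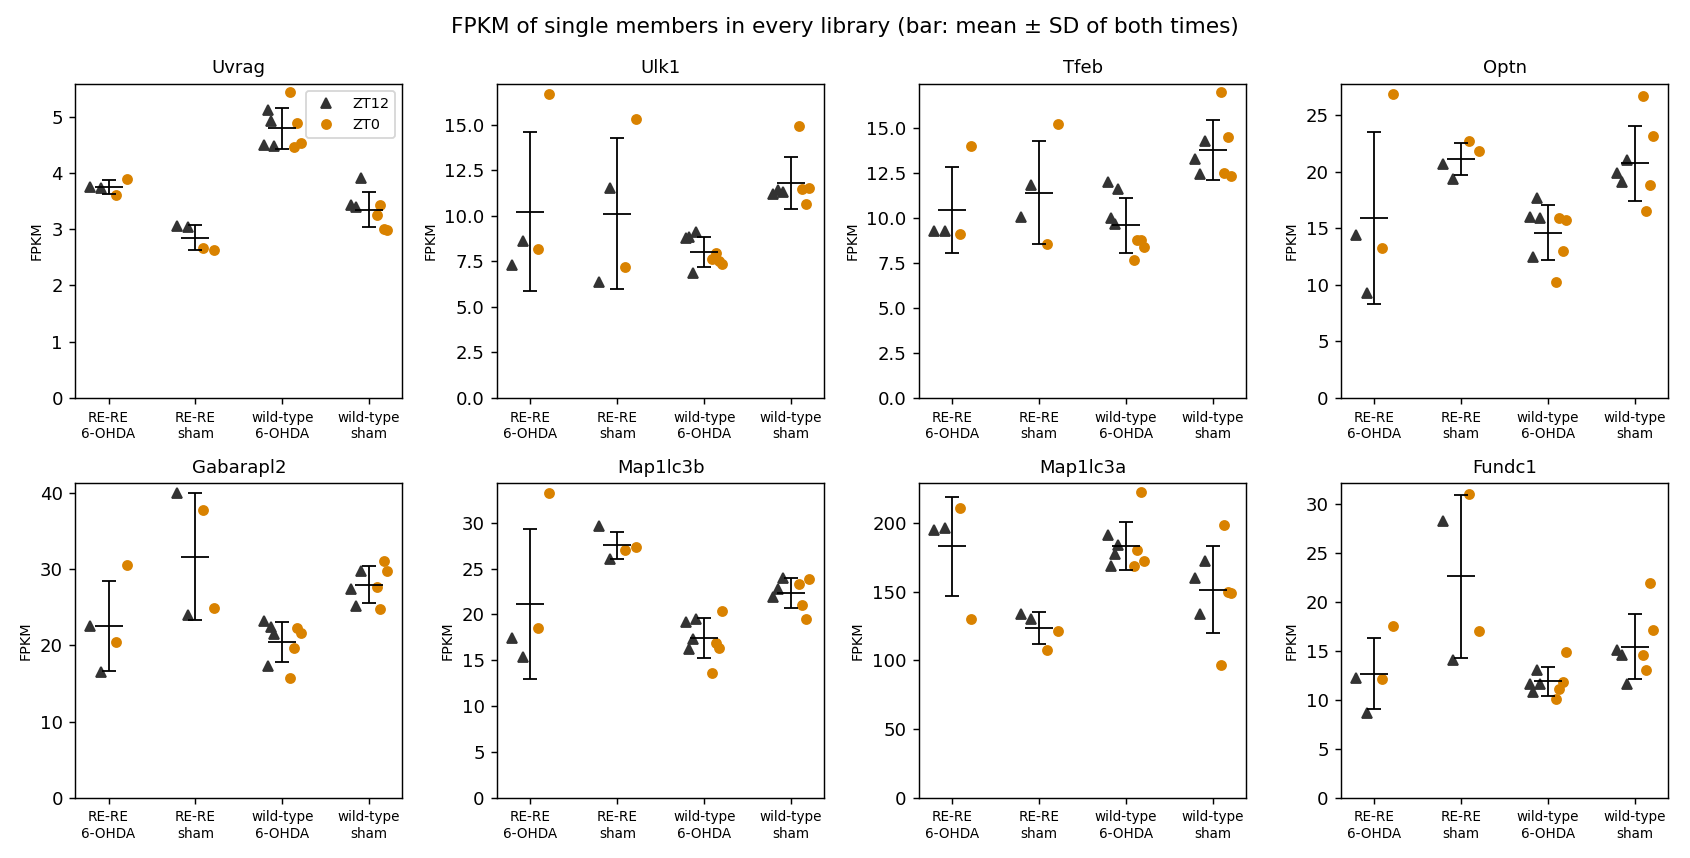
FPKM of 8 of the genes in every library, by genotype and treatment (triangles ZT12, circles ZT0, bars mean ± SD of both times). In wild-type muscle the 6-OHDA libraries of Uvrag lie above, and those of Ulk1, Tfeb and Gabarapl2 below, every sham library. RE-RE libraries spread more widely than wild-type ones for Ulk1, Tfeb and Gabarapl2, but not for Uvrag.

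Markers of other cells moved in the same comparison. In wild-type muscle 11 of 12 macrophage markers were higher after 6-OHDA (summed level 154 to 538 FPKM after 6-OHDA and 27.1 to 71.8 FPKM in sham), as were 8 of 8 fibroblast markers (482 to 1611 FPKM after 6-OHDA and 129 to 338 FPKM in sham). Of 10 markers of regenerating fibres, among them embryonic myosin, 9 were higher (487 to 986 FPKM after 6-OHDA, 170 to 521 FPKM in sham). Of 12 mature fibre markers 7 were lower and 2 higher (41118 to 58775 FPKM after 6-OHDA, 64684 to 80114 FPKM in sham), and 4 were lower and 2 higher after rescaling. Schwann cell markers were higher in 5 of 8 (33.1 to 50.6 FPKM after 6-OHDA, 17.3 to 34.2 FPKM in sham) and erythroid markers lower in 3 of 5 (44.2 to 142 FPKM after 6-OHDA, 127 to 226 FPKM in sham). The mitochondrial share of reads was 7.31% to 15.3% after 6-OHDA and 15.3% to 21.2% in sham. None of these lists had a marker at 0 in wild-type libraries. The part of these shifts in the autophagy gene differences was not tested, and in whole muscle fewer cells of a type and less RNA per cell cannot be told apart.

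In RE-RE muscle too, Uvrag was higher after 6-OHDA than in sham, and Map1lc3b and Bnip3l were lower. In these mice 10 of 37 genes passed (3 higher, 7 lower), and 26.9% of all genes did, 11.9% higher and 15% lower. The 3 higher genes were Uvrag, Wipi1 and Map1lc3a. The 7 lower ones were Ulk2, Rb1cc1, Becn1, Atg12, Map1lc3b, Bnip3l and Fundc1. None passed with age as a covariate, with array weights or when only the compared groups were fitted. None passed either when RE-RE sham library 1 or 3, or RE-RE 6-OHDA library 1 or 4, was left out, while 18 genes passed without RE-RE sham library 2 and 21 without RE-RE sham library 4. The fit without the 3 libraries that stood apart leaves 1 library in every RE-RE group but 6-OHDA at ZT12, so its count of passing genes is not given here. After rescaling to library totals, where the median of all genes was 0.37, 10 genes were higher and 1, Ulk2, was lower (-0.35). The other 6 lower genes kept a negative sign without passing, between -0.41 for Fundc1 and -0.03 for Becn1.

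Uvrag had 3.60, 3.89, 3.75 and 3.73 FPKM in RE-RE 6-OHDA libraries 1 to 4, and 2.67, 2.63, 3.05 and 3.03 FPKM in RE-RE sham libraries 1 to 4. All treated libraries lay above all sham libraries, and the difference was 0.40 ± 0.10 on the log2 scale (SE, limma adjusted p = 0.0169), 0.38 without the 3 libraries. Wipi1, which reads the lipid signal on the forming membrane, had 16.6, 16.3, 14.6 and 15.8 FPKM in RE-RE 6-OHDA libraries and 9.22, 14.5, 7.85 and 13.6 FPKM in RE-RE sham libraries. Here the sham libraries 1 and 3 were the lowest, and the rise of 0.53 ± 0.17 (SE, limma adjusted p = 0.0303) was 0.18 and did not pass without the 3 libraries (adjusted p = 0.395). Map1lc3a averaged 183 ± 36.0 FPKM after 6-OHDA and 123 ± 11.6 FPKM in sham (SD, n = 4 each), a rise of 0.55 (limma adjusted p = 0.0356) that became 0.69 without the 3 libraries. Uvrag and Wipi1 were the 2 of 37 genes whose RE-RE libraries did not overlap, both higher, against 2.7% of all genes, and 0 were lower, against 1.92%. Of the markers, 7 of 10 for regenerating fibres were higher in RE-RE muscle (264 to 1027 FPKM after 6-OHDA, 267 to 563 FPKM in sham, where Mymk, Mymx and Chrng were listed at 0 in 1, 1 and 2 of the 4 libraries). Of 12 macrophage markers 0 passed by limma (2 at an unadjusted p under 0.05), with summed levels of 20.03 to 331 FPKM after 6-OHDA and 32.2 to 100.3 FPKM in sham, and their part here was not tested.

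In the RE-RE initiation complex, Ulk2 had 19.0, 31.4, 16.5 and 13.0 FPKM in 6-OHDA libraries 1 to 4 and 35.4, 33.1, 38.8 and 22.0 FPKM in sham libraries 1 to 4. Treated library 2 lay within the sham range, and the log2 difference was -0.74 ± 0.18 (SE, limma adjusted p = 0.0166), and -0.69 without the 3 libraries. Rb1cc1 had 6.33, 9.37, 5.34 and 4.01 FPKM in RE-RE 6-OHDA libraries and 13.7, 8.39, 12.2 and 6.94 FPKM in RE-RE sham libraries, with overlap (log2 -0.73, limma adjusted p = 0.019, and -0.49 without the 3 libraries). Ulk1 split within both groups, at 8.20, 16.7, 7.33 and 8.61 FPKM after 6-OHDA and 7.20, 15.3, 6.38 and 11.5 FPKM in sham (log2 0.02, not passed). Without the 3 libraries the difference of Ulk1 was -0.72, and those of Tfeb and Optn were -0.54 and -0.73. With all libraries Tfeb and Optn had -0.12 and -0.51 in RE-RE muscle and did not pass.

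Becn1, the core of the nucleation complex, had 6.10, 8.24, 6.75 and 5.46 FPKM in RE-RE 6-OHDA libraries and 9.21, 8.06, 9.502 and 8.41 FPKM in RE-RE sham libraries. Only treated library 2 reached the sham range (log2 -0.42 ± 0.11, SE, limma adjusted p = 0.0193). Cntd1, on the opposite strand, overlaps 43.9% of its exon length. Without the 3 libraries the difference of Becn1 was -0.44. Atg12, the ubiquitin-like protein joined to ATG5, had 13.5, 16.4, 12.5 and 12.2 FPKM in RE-RE 6-OHDA libraries and 27.9, 17.8, 23.5 and 16.2 FPKM in RE-RE sham libraries. Sham libraries 1 and 3 were the highest, and the log2 difference of -0.62 (limma adjusted p = 0.0208) was -0.39 and did not pass without the 3 libraries (adjusted p = 0.119).

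Map1lc3b had 18.6, 33.3, 17.5 and 15.3 FPKM in RE-RE 6-OHDA libraries and 27.1, 27.4, 29.6 and 26.1 FPKM in RE-RE sham libraries. The sham libraries were close together and treated library 2 exceeded them all (log2 -0.45, limma adjusted p = 0.0381, and -0.62 without the 3 libraries). Gabarapl2 had 20.5, 30.5, 22.6 and 16.5 FPKM after 6-OHDA and 37.8, 24.9, 39.9 and 24.0 FPKM in sham (log2 -0.49, limma adjusted p = 0.054, and -0.30 without the 3 libraries). Fundc1, a hypoxia-linked mitophagy receptor, had 12.2, 17.6, 12.3 and 8.72 FPKM in RE-RE 6-OHDA libraries and 31.0, 17.1, 28.3 and 14.1 FPKM in RE-RE sham libraries. Its sham libraries 1 and 3 were far above 2 and 4, and the log2 difference of -0.80 (limma adjusted p = 0.0227) was -0.47 without the 3 libraries and did not pass. Bnip3l averaged 18.8 ± 6.16 FPKM after 6-OHDA and 27.1 ± 6.09 FPKM in sham (SD, n = 4 each, log2 -0.55, limma adjusted p = 0.0306, and -0.46 without the 3 libraries).

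No gene of the 37 passed the test of the difference between the genotypes' 6-OHDA effects (limma, 2 at an unadjusted p under 0.05, 0 by limma-voom), where 0.0702% of all genes passed. The log2 differences of effects, RE-RE minus wild-type, were -0.51 for Atg12 (adjusted p = 0.281), 0.45 for Wipi1 (adjusted p = 0.321) and 0.57 for Ulk1 (adjusted p = 0.353). Without the 3 libraries they were -0.29 for Atg12, 0.10 for Wipi1 and -0.17 for Ulk1, whose sign turned, and none of the 37 passed. A gene that passed in 1 genotype only is thus not shown to respond differently in the other.

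**Figure D3:**
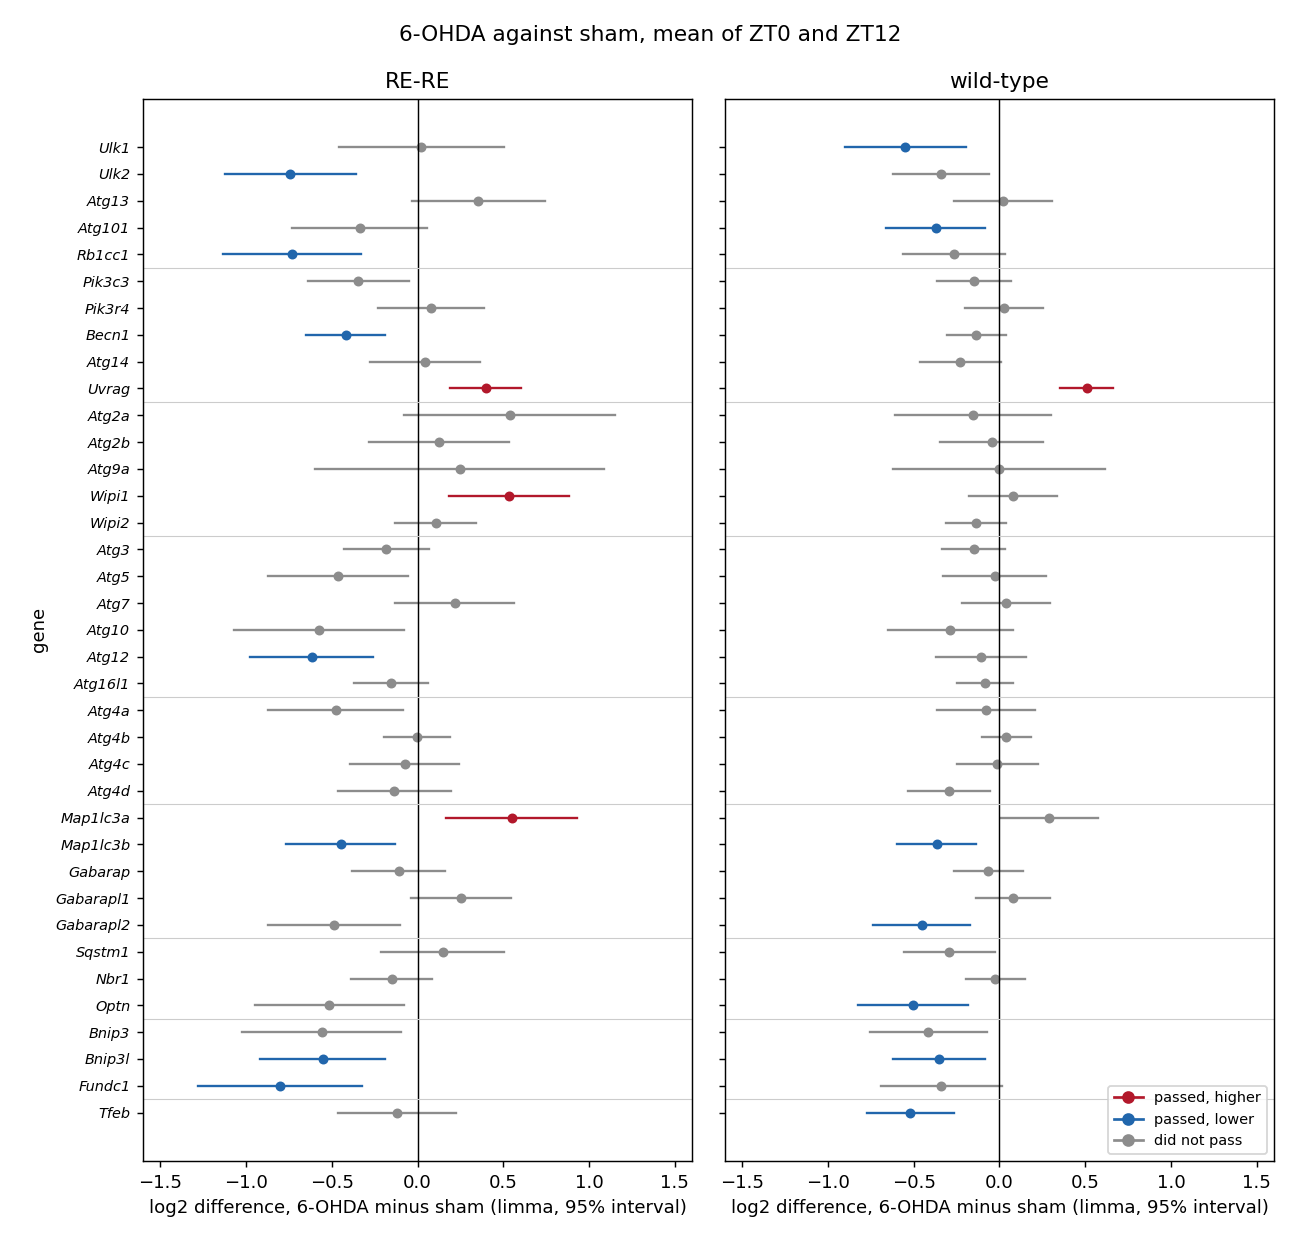
Log2 differences of the 37 genes, 6-OHDA minus sham, averaged over both times, in RE-RE (left) and wild-type (right) muscle, with 95% intervals from limma; red and blue points passed as higher and lower, grey ones did not pass. Uvrag is red and Map1lc3b and Bnip3l are blue on both sides, and the intervals are wider in RE-RE.

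In sham muscle, RE-RE and wild-type mice differed in 3 of 37 genes (2 higher and 1 lower in RE-RE), where 9.91% of all genes passed, 4.74% higher and 5.17% lower. Becn1 had 9.21, 8.06, 9.502 and 8.41 FPKM in RE-RE sham libraries 1 to 4, and a lowest, median and highest level of 6.06, 6.85 and 7.32 FPKM in wild-type sham libraries. It was higher in RE-RE by 0.37 ± 0.10 with no overlap (SE, limma adjusted p = 0.032). Atg12 had 27.9, 17.8, 23.5 and 16.2 FPKM in RE-RE and 9.71, 12.5 and 17.3 FPKM (lowest, median and highest) in wild-type sham libraries (log2 0.71 ± 0.15, SE, limma adjusted p = 0.014). Wipi1 had 9.22, 14.5, 7.85 and 13.6 FPKM in RE-RE and 11.8, 15.1 and 18.7 FPKM in wild-type sham libraries (log2 -0.48 ± 0.15, SE, limma adjusted p = 0.0476). None of the 3 passed without the 3 libraries, with differences of 0.28, 0.41 and -0.12. Becn1 and Map1lc3b were the 2 of 37 genes with non-overlapping libraries, both higher in RE-RE, against 1.82% of all genes, and 0 were lower, against 1.66%. After rescaling to library totals, with a median of -0.14 for all genes, 1 gene was higher (Atg12) and 2 lower (Wipi1 and Sqstm1).

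After 6-OHDA, none of the 37 genes passed between RE-RE and wild-type muscle by limma, with 1 at an unadjusted p under 0.05 and 0 by limma-voom, and 0.226% of all genes passed. That gene was Uvrag, with 3.60 to 3.89 FPKM in RE-RE 6-OHDA and 4.45 to 5.44 FPKM in wild-type 6-OHDA libraries (log2 -0.35 ± 0.09, SE, limma adjusted p = 0.122, and -0.38 without the 3 libraries, adjusted p = 0.121). It was the only 1 of the 37 whose libraries did not overlap here, lower in RE-RE, against 0.577% of all genes, and 0 were higher, against 0.554%. Both this comparison and the sham comparison use libraries that also enter the 6-OHDA contrasts.

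The times of day were compared within each genotype and treatment. In simulated data with 1 spread for both genotypes, the fit found 9.67% of changes of 0.5 on the log2 scale for time in wild-type sham muscle. That share holds for the simulated setting and may differ in these data. By limma, 0 of 37 passed between ZT12 and ZT0 in RE-RE 6-OHDA, RE-RE sham, wild-type 6-OHDA or wild-type sham muscle, with 7, 1, 2 and 3 at an unadjusted p under 0.05 and 0 by limma-voom in each. The shares of all genes that passed were 0.109%, 0.0546%, 0.671% and 0.647% in that order. Atg101 had a higher mean at ZT12 than at ZT0 in every group. In RE-RE muscle its means at ZT12 and ZT0 were 22.8 and 22.2 FPKM after 6-OHDA, and 35.8 and 23.6 FPKM in sham (n = 2 each). It averaged 25.5 ± 2.02 FPKM at ZT12 and 18.9 ± 4.34 FPKM at ZT0 in wild-type 6-OHDA muscle (SD, n = 4 each; log2 0.46, limma adjusted p = 0.540). In wild-type sham muscle it averaged 32.9 ± 1.22 FPKM at ZT12 (SD, n = 3) and 24.1 ± 2.34 FPKM at ZT0 (SD, n = 4; log2 0.46, limma adjusted p = 0.656). Tfeb averaged 10.8 ± 1.14 FPKM at ZT12 and 8.41 ± 0.516 FPKM at ZT0 in wild-type 6-OHDA muscle (SD, n = 4 each; log2 0.36, limma adjusted p = 0.641).

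In RE-RE 6-OHDA muscle 34 of 37 genes had negative differences (ZT12 minus ZT0), with a median of -0.26 on the log2 scale against -0.03 for all genes, and library 2, which stood apart, is 1 of the 2 at ZT0. Without RE-RE 6-OHDA library 1, which leaves library 2 as the lone ZT0 library, 8 genes passed as lower. Without the 3 libraries none passed. The change of the time effect with 6-OHDA gave 0 of 37 genes in RE-RE (3 at an unadjusted p under 0.05) and 0 in wild-type mice (0 at an unadjusted p under 0.05), where 0.0156% and 0.0078% of all genes passed. The difference of the time effect between RE-RE and wild-type sham muscle gave 0 genes as well (0 at an unadjusted p under 0.05), and 0.0156% of all genes passed. Limma-voom called 0 in each of these.

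**Figure D4:**
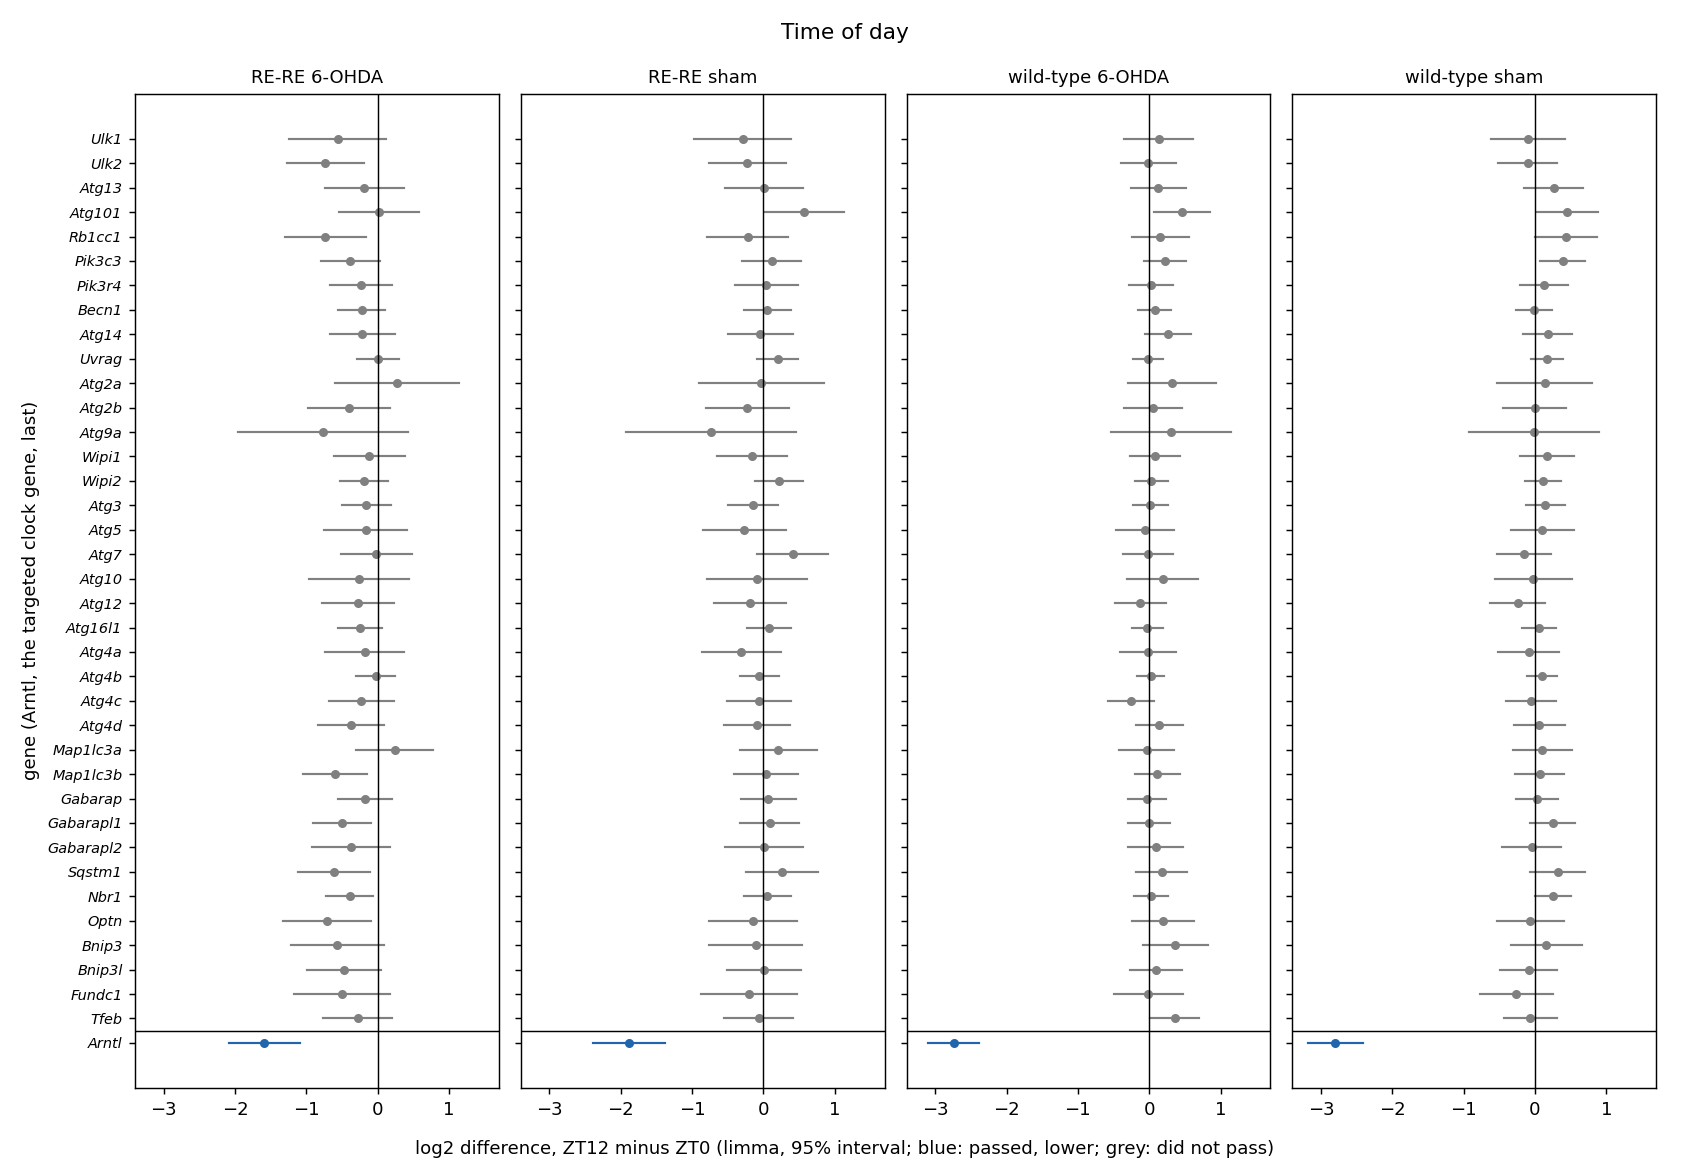
Differences in log2 level of the 37 genes and of Arntl, at ZT12 minus those at ZT0, for both genotypes and treatments, with 95% intervals from limma. No autophagy gene passed, while Arntl passed as lower at ZT12 in all 4.

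Genes that work beside the 37 were counted from lists of the same pathway. The shares of all genes to set beside these counts are 18.8% higher and 15.9% lower for 6-OHDA in wild-type muscle. Of 30 lysosomal genes, 9 were higher and 2 lower after 6-OHDA in wild-type muscle. Atp6v1a, a proton pump subunit, averaged 5.55 ± 1.09 FPKM after 6-OHDA (SD, n = 8) and 3.61 ± 0.260 FPKM in sham (SD, n = 7; log2 0.60, limma adjusted p = 0.00187). The higher ones also included Ctss (log2 2.96, limma adjusted p = 0.00195) and Grn (1.33), which macrophages are known to express strongly. Lamp1, the major lysosomal membrane protein, was among the lower 2 (-0.25, limma adjusted p = 0.0471). After rescaling to library totals the split was 23 higher and 0 lower.

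Of 14 other receptor and mitophagy genes, 3 were lower and 0 higher in wild-type muscle, where 15.9% of all genes were lower. Pink1, the kinase that marks damaged mitochondria, averaged 191 ± 44.6 FPKM after 6-OHDA (SD, n = 8) and 319.9 ± 35.1 FPKM in sham (SD, n = 7; log2 -0.77, limma adjusted p = 0.0043). Rescaled, Pink1 still passed as lower (-0.44), and the list split into 5 higher and 1 lower. Of 15 other autophagy genes 1 was higher and 1 lower: Wdr45b (0.27) and Wdr45 (-0.37), a pair of WIPI-family lipid readers (rescaled, 4 higher and 0 lower). The call of Wdr45b was lost after quantile normalization (adjusted p = 0.0658) and without any 1 of 13 of the 15 libraries. Of 22 upstream regulators 2 were higher and 4 lower (rescaled, 11 and 1). Sesn3, an inhibitor of mTORC1 signalling, averaged 2.85 ± 0.966 FPKM after 6-OHDA and 1.11 ± 0.203 FPKM in sham (log2 1.31, limma adjusted p = 0.00156), and Foxo4, a FoxO factor, was lower (-0.71).

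In RE-RE muscle, where 11.9% of all genes were higher after 6-OHDA and 15% lower, 4 of 30 lysosomal genes were higher and 1 lower (rescaled, 9 and 0), led by Atp6v0d1 (0.46) and Ctsz (0.87). Of the 15 other autophagy genes 1 was higher (Ambra1, 0.59) and 1 lower (Rab7, -0.42), of the 14 other receptor and mitophagy genes 0 were higher and 2 lower (Usp15, -0.73, and Pgam5, -0.50), and of the 22 regulators 1 was higher (Ddit4, 1.38) and 6 lower, with Prkaa2, a catalytic subunit of AMPK, at -0.91. Rescaled, these lists gave 5 higher and 0 lower, 5 and 0, and 5 and 1. Without the 3 libraries that stood apart, Ctsz and Prkaa2 had 1.16 and -0.92, and the other named genes of this paragraph did not pass. In RE-RE sham against wild-type sham muscle, where 4.74% of all genes were higher and 5.17% lower, 2 lysosomal genes (Atp6v1a, 0.55, and Atp6v1b2, 0.31), 2 other autophagy genes (Snap29, 0.56, and Stx17, 0.51, both parts of autophagosome fusion) and Pgam5 (0.69) were higher, and Ddit4 was lower (-1.37). None of these 6 passed without the 3 libraries. Between the times, Depp1, a FoxO target linked to autophagy, passed in wild-type 6-OHDA muscle alone of these lists (higher at ZT12, log2 1.53, limma adjusted p = 0.0384), and rescaled it did not (adjusted p = 0.0746).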

How the data were processed

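Total RNA of whole tibialis anterior muscle was sequenced as read pairs in 23 libraries, grouped by genotype, treatment and time from the labels. The authors deposited log2 values for 14500 genes, which their range (-6.64 to 16.6) shows to be log2(FPKM + 0.01). The submitters' processing notes name HISAT2 2.1.0, featureCounts 1.6.2, edgeR 3.30.0, FastQC 0.11.8 and Trim Galore 0.5.0, and GRCm38 as build. Strand setting and any factor between libraries are not given in the sources used here, but the deposited scale differs from the read totals.

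GENCODE M21 gave symbols, positions and lengths for 14435 genes. FPKM steps gave whole reads for 86.4% to 94.7% of values of up to 20 reads (within 0.1 read), and totals of 21.1M to 36.1M reads per library. The library sizes implied by these steps were 14.4M to 35.6M, and the totals over these sizes were 0.839 to 1.52. Genes were tested where FPKM reached 1 in 2 or more libraries (12820 genes). The model, fitted in R 4.3.3 (limma 3.58.1), had a mean for every group of all libraries, trended eBayes and 12 comparisons, at a Benjamini-Hochberg adjusted p under 0.05. The fit was tested on simulated data with known changes. Of changes of 0.5 on the log2 scale it recovered 34% for 6-OHDA in wild-type and 10.3% for 6-OHDA in RE-RE muscle. For time in wild-type sham muscle it recovered 9.67%. Of changes of 1 it recovered 76.3%, 52.3% and 55.7% in that order, so a gene that did not pass is not shown to be unchanged. Group FPKM are linear means ± SD. Other settings tried were a pseudocount of 1, another filter or none, quantile normalization, own totals of recovered reads, limma-voom on those reads at the library sizes implied by the deposited FPKM, array weights, age as covariate, only the compared groups, a replicate block, each library left out, and 3 RE-RE libraries left out.

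For the 12 called genes with the smallest adjusted p, wild-type levels, where printed, are the lowest, median and highest library, and RE-RE levels are per library. Tfeb and Optn have no RE-RE levels in the text. Atg4d, the most abundant protease gene, has wild-type levels only. The others called have group means. Pathway genes outside the 37 were named where called, up to 2 per list and comparison, and some of these are not reported here; Ctss, Grn and Lamp1 were named after their values were seen. The members, lists, settings and the 3 libraries were chosen with earlier results of these data known. Figures were drawn with matplotlib 3.10.9 (python 3.11.15) from tables made with pandas 2.3.3 and numpy 2.4.6.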

Additional observations from a re-analysis of the deposited data

Results flagged for a closer look

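In groups of 4 libraries, the 37 genes gave 111 gene and group pairs, of which 5 had 1 library far from the other 3 by Dixon's ratio, where chance gives about 1 in 20 (5.55 pairs). All 5 were in wild-type 6-OHDA muscle at ZT12. In library 7, Ulk1 had 6.88 FPKM, against 8.79 to 9.11 FPKM in the other libraries, and Wipi2 had 3.77 FPKM, against 4.30 to 4.40 FPKM. In library 6, Gabarap had 54.9 FPKM, against 60.8 to 61.6 FPKM, and Gabarapl1 had 24.0 FPKM, against 20.8 to 21.1 FPKM. Nbr1 had 14.7 FPKM in library 5, against 16.8 to 17.3 FPKM in the others. Without library 7 the call of Ulk1 remained.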

How the results depend on the processing

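The counts in this section are not set against the shares of all genes that passed under the same settings. Of the 37 genes, 8 passed for 6-OHDA in wild-type muscle, 17 with array weights (2 higher, 15 lower) and 15 when only the compared groups were fitted (1 higher, 14 lower). For 6-OHDA in RE-RE muscle, 10 passed, and 0 with array weights, with age as a covariate or with only the compared groups. Between the genotypes in sham muscle, 3 passed, 1 after quantile normalization, and 0 with array weights, age, only the compared groups or without the 3 libraries that stood apart. Array weights gave 1 gene for time in wild-type sham (Atg101) and 3 in wild-type 6-OHDA muscle (Atg101, Tfeb and Bnip3). Leaving out 1 library at a time gave 6 to 10 genes for 6-OHDA in wild-type, 0 to 21 for 6-OHDA in RE-RE, 0 to 17 between the genotypes in sham (0 without RE-RE sham library 1 or 3, 17 without library 2, 13 without library 4, and 1 without wild-type sham library 2, 5, 6 or 7), 0 to 1 for RE-RE against wild-type after 6-OHDA (Map1lc3b, without RE-RE 6-OHDA library 1), 0 to 8 for time in RE-RE 6-OHDA, 0 to 3 for the difference of the 6-OHDA effects (2 without RE-RE sham library 2, 3 without library 4), and 0 for the other comparisons. The cause was not tested, beyond there being fewer libraries. Of the named genes, Ambra1 in RE-RE (6-OHDA minus sham) reversed to -0.021 without the 3 libraries (adjusted p = 0.922). The same replicate numbers occur in sham and 6-OHDA groups, mostly on animals of different ages. Same-numbered libraries correlated between -0.12 and 0.07 in wild-type and at 0.10 and 0.16 in RE-RE mice, where groups of 2 give each value for both of their libraries, so they were not treated as pairs. With the replicate number as a block, 10 genes passed for 6-OHDA in wild-type (1 higher, 9 lower; Bnip3l did not, nor did Wdr45b outside the 37), 10 in RE-RE (outside the 37, Rab7 and Pgam5 did not, adjusted p = 0.0518 and 0.0797), and 0 for the changes of the time effect and the difference of the 6-OHDA effects. The genotypes share numbers 1 and 2 at ZT0 and none at ZT12, so a block within each time gives no difference averaged over both times, and a block at ZT0 alone was not run. ZT12 and ZT0 groups share no numbers within a genotype. Reads per gene and library went down to 107, and counting error was not set against the spread between libraries.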
